A study of Mus musculus with 12 samples.

Results

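The 48 genes described here are type I interferon-stimulated antiviral genes, read in RAW 264.7 cells, a mouse macrophage line, with and without lipopolysaccharide (LPS). They were chosen by name, as genes known to be switched on by type I interferon, and not by a rule on values measured here. Earlier results of these data were known when they were chosen. All 48 were found in the count table among 54232 genes, and all 48 had enough counts to be tested. RNA was sequenced from 12 libraries in 6 groups of 2: Ing4 KO, Socs1 KO and wild-type (WT) cells, each either given LPS at 100 ng/ml for 3 h or left untreated. The knockouts are labelled Ing4-/- and Socs1-/-, and the submitters describe both as E3 ligase knockouts. LPS is the endotoxin of Gram-negative bacteria. The sources used here do not give how the knockouts were made or whether each is 1 clone, so the loss of a gene and a difference between cell lines cannot be told apart. Whether libraries of 1 group stem from separate cultures is not labelled, and p-values therefore measure only the spread between these samples.

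In macrophages, LPS is sensed by Toll-like receptor 4. Its adaptor TRIF, encoded by Ticam1, activates the kinase TBK1 and the transcription factor IRF3, which switches on the interferon-beta gene Ifnb1. Secreted interferon-beta then binds the receptor IFNAR on the same and on neighbouring cells, where the kinases JAK1 and TYK2 start a signal that activates the transcription factor ISGF3. This factor binds interferon-stimulated response elements in the promoters of antiviral genes. Some of these genes are also direct targets of IRF3. SOCS1 restrains the JAK kinases, and ING4 reads methylated histone H3 as a subunit of an acetyltransferase complex.

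The promoters of 6 members are shown because the responses of these genes are described below and because each window holds a core of that response element. The sequences are those of RefSeq for the mouse build GRCm38.p6, 250 bases before to 50 bases after a start site, 5′ to 3′ on the strand of the gene. Capitals mark matches to GAAA, any 2 bases and GAAA, searched on both strands. A match on the other strand reads TTTC, any 2 bases and TTTC, and matches may overlap. The windows lie at chr19:34640639-34640938 (plus strand) for Ifit1, chr19:34583279-34583578 (plus strand) for Ifit3, chr4:156200769-156201068 (minus strand) for Isg15, chr12:26456403-26456702 (minus strand) for Rsad2, chr2:62646206-62646505 (minus strand) for Ifih1 and chr1:173942443-173942742 (minus strand) for Ifi203.
Ifit1: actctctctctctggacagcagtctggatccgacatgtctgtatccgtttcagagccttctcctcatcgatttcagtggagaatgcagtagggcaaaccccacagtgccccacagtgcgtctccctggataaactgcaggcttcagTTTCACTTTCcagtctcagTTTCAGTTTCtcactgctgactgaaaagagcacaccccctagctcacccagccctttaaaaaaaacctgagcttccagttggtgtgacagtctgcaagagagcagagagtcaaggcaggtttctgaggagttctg
Ifit3: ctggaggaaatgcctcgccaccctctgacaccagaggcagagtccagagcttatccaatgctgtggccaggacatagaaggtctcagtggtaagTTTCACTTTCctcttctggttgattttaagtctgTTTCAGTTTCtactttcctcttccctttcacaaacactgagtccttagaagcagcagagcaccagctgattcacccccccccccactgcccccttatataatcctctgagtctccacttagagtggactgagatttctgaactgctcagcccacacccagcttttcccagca
Isg15: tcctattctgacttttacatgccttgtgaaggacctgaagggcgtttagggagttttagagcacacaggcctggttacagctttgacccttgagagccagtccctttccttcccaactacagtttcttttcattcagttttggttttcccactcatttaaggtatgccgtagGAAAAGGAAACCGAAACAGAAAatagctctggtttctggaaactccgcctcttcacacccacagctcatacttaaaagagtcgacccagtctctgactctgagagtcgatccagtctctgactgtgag
Rsad2: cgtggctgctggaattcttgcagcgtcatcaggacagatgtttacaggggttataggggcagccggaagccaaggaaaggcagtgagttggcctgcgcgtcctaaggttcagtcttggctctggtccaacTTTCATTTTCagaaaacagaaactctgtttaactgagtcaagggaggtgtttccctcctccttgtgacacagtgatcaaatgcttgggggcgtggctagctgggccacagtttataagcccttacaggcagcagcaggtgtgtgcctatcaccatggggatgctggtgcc
Ifih1: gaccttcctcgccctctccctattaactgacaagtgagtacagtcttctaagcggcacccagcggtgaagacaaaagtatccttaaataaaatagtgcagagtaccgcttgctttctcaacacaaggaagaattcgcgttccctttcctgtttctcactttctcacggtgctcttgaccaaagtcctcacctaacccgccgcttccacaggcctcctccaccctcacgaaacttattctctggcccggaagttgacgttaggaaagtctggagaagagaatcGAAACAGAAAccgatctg
Ifi203: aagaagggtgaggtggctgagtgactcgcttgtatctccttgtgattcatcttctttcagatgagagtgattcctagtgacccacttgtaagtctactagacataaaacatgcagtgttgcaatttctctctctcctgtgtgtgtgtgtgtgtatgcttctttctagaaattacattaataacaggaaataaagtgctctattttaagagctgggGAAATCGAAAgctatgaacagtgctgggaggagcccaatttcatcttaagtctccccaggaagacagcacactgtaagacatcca

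The Ifit1 window held a pair of matches on the other strand, with first bases 104 and 85 bases before the start. The Ifit3 window held the same pair of words, GAAAGTGAAA and GAAACTGAAA as read on their own strand, at 156 and 122 bases before the start. In Isg15 3 overlapping matches began 78, 72 and 66 bases before the start. Rsad2 and Ifi203 each had 1 match, 120 and 35 bases before the start, and the match of Ifih1 began 32 bases after it. Another window of Ifi203, for a different start site and overlapping the one shown, held no match. Of the 48 members, 37 had a window in the table, and 17 of these (45.9%) held at least 1 match, against 3.99% of 27025 mouse genes with a window. Counted per window, the 27 matches began between 191 bases before and 32 bases after the start, with a median of 66 bases before it. The windows of Slfn8 overlap and share a match, which is counted in each. The other members with a match were Bst2, Ddx58, Eif2ak2, Oas1a, Oas1g, Oas3, Slfn5, Slfn8, Tdrd7, Trim21 and Trim30a. The 11 members with no entry were Usp18, Parp9, Ifi204, Mx1, Dhx58, Mx2, Zbp1, Oas2, Tor3a, Parp14 and Rtp4. A match describes the letters in these windows and not the binding of a factor.

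The libraries held between 17250815 and 24377950 counts, and levels are given as CPM, counts relative to the scaled library size, for which 3 counts amount to 0.122 to 0.169 CPM. Of 10 macrophage markers 9 had counts in every library, and their summed level was between 11800 and 22200 CPM. Of 8 T, B and NK cell markers 6 were at 0 in every library, as were 5 of 6 fibroblast and epithelial markers, 3 of 6 neutrophil markers and, of 5 dendritic cell markers, Flt3. The summed levels of these 4 lists were at most 0.0905, 0.169, 19.2 and 5.4 CPM. The dendritic cell list was counted here without Bst2, which is also a member and stood at 33.6 to 295 CPM. The transcript level of the targeted gene did not settle either knockout. Ing4 had 6 to 29 counts per library in Ing4 KO cells and 2 to 10 in WT cells, too few in WT to show a loss. Socs1 stood at 2.73 and 7.14 CPM in LPS-treated Socs1 KO cells, below the 9.08 and 9.07 CPM in LPS-treated WT cells. Untreated levels of Socs1 were low and overlapped, at 0.303 and 0.348 CPM in Socs1 KO and 0.176 and 0.498 CPM in WT cells. A knockout can keep its transcript, and the counts do not check these labels. The LPS-treated Socs1 KO libraries stood apart from each other, with a correlation of log2 CPM across genes of 0.9258 against 0.9705 to 0.9869 between the libraries of the 5 other groups. Comparisons that do not use this group were therefore fitted to the 10 other libraries, and the counts from all 12 libraries are given beside them. This choice was made with earlier results of these data known.

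LPS raised interferon-stimulated genes across all functional families in both Ing4 KO and WT cells. In Ing4 KO cells 48 of 48 members rose and 0 fell, where 11.6% of all genes tested were called higher and 9.82% lower (edgeR quasi-likelihood test, Benjamini-Hochberg adjusted p under 0.05 over all genes). In WT cells 44 of 48 rose and 0 fell, where 8.24% of all genes were called higher and 7.09% lower. With all 12 libraries in the fit 5 members passed in Ing4 KO cells, namely Ifit1, Rsad2, Ifih1, Oasl1 and Isg15, where 4.73% of all genes passed as higher. In that fit 3 members passed in WT cells, namely Ifih1, Oasl1 and Isg15, where 1.89% of all genes passed. The log2 changes were nearly the same in both fits, while the standard error of Ifit1 in WT cells was 2.05 with all 12 libraries and 0.937 with 10. The median log2 change of the 48 members was 3.60 in Ing4 KO cells, between 1.20 and 9.65, and 3.04 in WT cells, between 1.04 and 8.86. The medians of all genes were -0.00135 and 0.00869 in Ing4 KO and WT cells. With replicate numbers as a block within each genotype, 48 of 48 members rose in Ing4 KO cells and 48 of 48 in WT cells, where 22.9% and 19.7% of all genes were called higher in Ing4 KO and WT cells. That pairing, described with the processing, was read from these same data and is not in the labels. The fit with it left 2 residual degrees of freedom. Both LPS-treated libraries stood above both untreated libraries for 48 of 48 members in Ing4 KO cells (29.1% of all genes) and for 48 of 48 in WT cells (30.7%). In bulk RNA, more responding cells and more RNA per cell cannot be told apart.

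**Figure D1:**
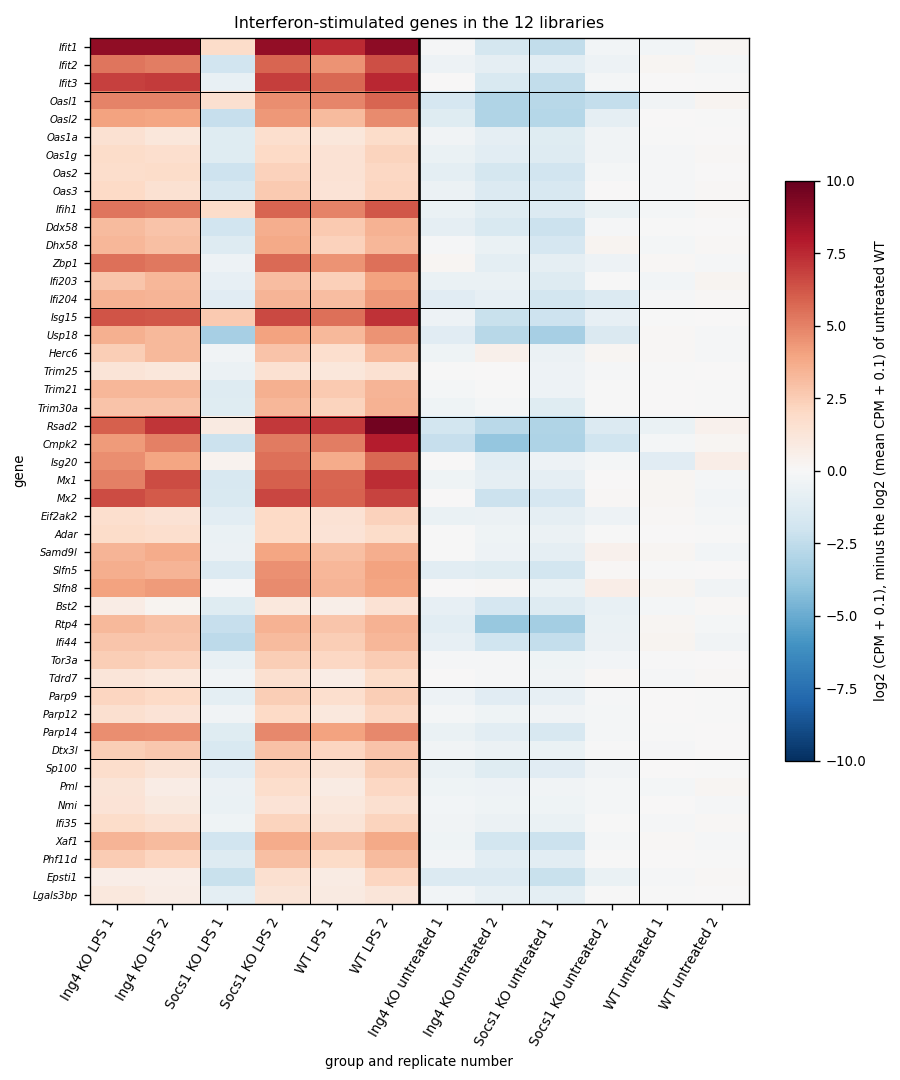
Heat map of the 48 members (rows, grouped by role between the thin lines) in the 12 libraries (columns), coloured by log2 (CPM + 0.1) minus the log2 of the mean level in untreated WT cells. Members are high in 5 of the 6 LPS-treated libraries, while the first LPS-treated Socs1 KO library resembles the untreated ones for most members, with Oasl1, Isg15, Ifit1, Rsad2 and Ifih1 among its exceptions.

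The IFIT genes, whose proteins bind foreign RNA and block its translation, had some of the largest changes. Ifit1 stood at 1754.5 and 1782 CPM in LPS-treated Ing4 KO cells, against 3.36 and 1.01 CPM in untreated Ing4 KO cells, a log2 change of 9.65 (SE 0.990, adjusted p = 0.000578). In WT cells it stood at 669 and 1882 CPM with LPS and 3.12 and 4.30 CPM without, a change of 8.43 (SE 0.937, adjusted p = 0.00128). The LPS-treated and untreated libraries lay far apart in both genotypes, and the second LPS-treated WT library was the highest of the 8. Ifit3 rose by 7.59 in Ing4 KO cells and by 7.00 in WT cells, to 174 and 188 CPM in LPS-treated Ing4 KO cells and 80.1 and 280.3 CPM in LPS-treated WT cells. Ifit2, the third member of the family measured here, rose by 5.92 and 5.77 in Ing4 KO and WT cells.

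Among the OAS family, whose enzymes make 2′-5′ oligoadenylates that activate RNase L, all 6 members rose in Ing4 KO cells and 5 of 6 in WT cells. Oasl1, an OAS-like protein that in mice restrains translation of Irf7, stood at 1617 and 1611 CPM with LPS in Ing4 KO cells, against 16.0 and 6.50 CPM untreated. In WT cells it stood at 1561 and 2900.2 CPM with LPS, against 41.7 and 62.7 CPM untreated. The change was 7.17 (SE 0.564, adjusted p = 0.000125) in Ing4 KO cells and 5.42 (SE 0.518, adjusted p = 0.000466) in WT cells, with overlapping LPS-treated levels and lower untreated levels in the knockout. Its neighbour Oasl2, 11005 bases away on chromosome 5 and on the same strand, rose by 5.94 in Ing4 KO and 4.20 in WT cells. The synthetases Oas1a, Oas1g and Oas2 rose by less, by 1.96, 2.62 and 3.11 in Ing4 KO cells and by 1.51, 1.87 and 1.79 in WT cells. Oas3 rose in Ing4 KO cells (log2 2.69, SE 0.562, adjusted p = 0.0124), and in WT cells it had a change of 1.82 (SE 0.544, adjusted p = 0.061), passing with the replicate block within genotype (1.78, adjusted p = 0.000117).

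All 6 nucleic acid sensors rose in both genotypes. Ifih1, which encodes MDA5, a sensor of long double-stranded RNA, stood at 717 and 662 CPM in LPS-treated and 11.0 and 7.42 CPM in untreated Ing4 KO cells. Its levels in WT cells were 541 and 1349 CPM with LPS and 15.9 and 19.6 CPM without. Its log2 change was 6.23 (SE 0.522, adjusted p = 0.00019) in Ing4 KO and 5.74 (SE 0.508, adjusted p = 0.000365) in WT cells, and no LPS-treated library came near an untreated one. Ddx58, which encodes RIG-I, rose by 4.20 and 3.11 in Ing4 KO and WT cells, and the related Dhx58 (LGP2) by 3.51 and 2.90 in Ing4 KO and WT cells. Zbp1, a sensor of Z-form nucleic acids that triggers necroptosis, rose by 5.84 and 5.19 in Ing4 KO and WT cells. The PYHIN family genes Ifi203 and Ifi204 rose by 3.70 and 4.38 in Ing4 KO cells and by 3.41 and 3.87 in WT cells.

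The ISG15 and ubiquitin group rose in full, 6 of 6 in each genotype, with a wide range of sizes. Isg15, a ubiquitin-like modifier, stood at 396 and 376 CPM in LPS-treated and 3.49 and 0.967 CPM in untreated Ing4 KO cells. Its levels in WT cells were 229.9 and 741 CPM with LPS and 4.70 and 5.11 CPM without. The change was 7.43 (SE 0.830, adjusted p = 0.000849) in Ing4 KO and 6.63 (SE 0.789, adjusted p = 0.00163) in WT cells, and the LPS-treated libraries lay closer together in the knockout than in WT cells. Usp18, which removes ISG15 and dampens signalling at IFNAR, stood at 439 and 350.1 CPM with LPS and 16.7 and 5.11 CPM without in Ing4 KO cells. Its levels in WT cells were 344 and 841 CPM with LPS and 39.3 and 33.4 CPM without. Its change was 5.18 (SE 0.812, adjusted p = 0.00374) in Ing4 KO and 4.03 (SE 0.763, adjusted p = 0.0108) in WT cells, and it rested on every WT library but the first LPS-treated one, since it had an adjusted p of 0.0843, 0.0951 or 0.0636 in WT cells without the first untreated, the second untreated or the second LPS-treated library. Herc6, the ligase for ISG15 in mice, rose by 2.81 and 2.75 in Ing4 KO and WT cells. The ubiquitin ligase genes Trim21 and Trim30a rose by 3.48 and 3.13 in Ing4 KO cells and by 3.09 and 2.98 in WT cells. Trim25, the ligase that acts on RIG-I, already stood at 318 and 322 CPM in untreated WT cells and rose by only 1.25 and 1.36 in Ing4 KO and WT cells.

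Of 15 GTPases, enzymes and restriction factors, 15 rose in Ing4 KO cells and 13 in WT cells. Rsad2 encodes viperin, which makes a chain-terminating nucleotide that stops viral polymerases. It stood at 466 and 1011 CPM in LPS-treated and 1.92 and 1.01 CPM in untreated Ing4 KO cells, a change of 8.97 (SE 1.21, adjusted p = 0.00193). In WT cells it stood at 972 and 5707 CPM with LPS and 4.43 and 9.91 CPM without, a change of 8.86 (SE 1.17, adjusted p = 0.00242), and the LPS-treated WT libraries differed from each other more than those of most members. Cmpk2, a mitochondrial nucleotide kinase, rose by 7.69 in Ing4 KO and 7.04 in WT cells. Rsad2 (chr12:26442746-26456452, minus strand, GRCm38) and Cmpk2 (chr12:26469204-26479837, plus strand) run away from each other with 12751 bases between them.

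Mx1, a dynamin-like GTPase that blocks influenza viruses in mice, was the member with the lowest untreated level per kilobase of exon in WT cells. It stood at 14.5 and 39.2 CPM in LPS-treated and 0.218 and 0.138 CPM in untreated Ing4 KO cells, and at 24.1 and 71.1 CPM in LPS-treated and 0.395 and 0.272 CPM in untreated WT cells. These are changes of 7.18 (SE 0.871, adjusted p = 0.00116) in Ing4 KO and 7.13 (SE 0.821, adjusted p = 0.00137) in WT cells, with untreated values near the depth of a few counts. Mx2, annotated as a polymorphic pseudogene, rose by 7.08 and 6.45 in Ing4 KO and WT cells. Adar, the adenosine deaminase that edits double-stranded RNA, stood at 559.7 and 499.9 CPM in LPS-treated and 155 and 113 CPM in untreated Ing4 KO cells. In WT cells it stood at 392 and 543 CPM with LPS and 159.7 and 152 CPM without. Its changes of 1.98 (SE 0.254, adjusted p = 0.000996) in Ing4 KO and 1.59 (SE 0.251, adjusted p = 0.0036) in WT cells were small beside those of Rsad2 and Mx1, and the libraries did not overlap. The double-stranded RNA kinase PKR (Eif2ak2) rose by 2.18 and 1.93 in Ing4 KO and WT cells, and the RNA exonuclease Isg20 by 4.92 and 5.19 in Ing4 KO and WT cells. The 2 members of this group that did not pass in WT cells were Bst2, which tethers budding virions (log2 1.10, SE 0.381, adjusted p = 0.0937), and Rtp4 (log2 3.19, SE 0.923, adjusted p = 0.0554). Both rose in Ing4 KO cells, by 1.70 and 5.00, and with the replicate block within genotype both passed in WT cells, Bst2 with 1.04, adjusted p = 0.00355, and Rtp4 with 3.15, adjusted p = 0.0276. The Schlafen genes Slfn5 and Slfn8 rose by 4.68 and 4.11 in Ing4 KO cells and by 3.72 and 3.71 in WT cells, and Samd9l, Ifi44, Tor3a and Tdrd7 by 1.20 to 4.08 in Ing4 KO cells and by 1.37 to 3.33 in WT cells.

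The PARP and DTX3L group rose in full in both genotypes. Parp14, a mono-ADP-ribosyltransferase, rose by 5.45 in Ing4 KO and 4.46 in WT cells. Parp9 and the ubiquitin ligase Dtx3l, which form a complex, rose by 2.84 and 3.06 in Ing4 KO cells and by 2.15 and 2.55 in WT cells, and Parp12 by 1.77 and 1.64 in Ing4 KO and WT cells. Of the 8 remaining members 8 rose in Ing4 KO and 7 in WT cells. Xaf1, a pro-apoptotic protein gene, rose by 4.26 and 3.42 in Ing4 KO and WT cells, Phf11d by 2.99 and 2.70 in Ing4 KO and WT cells, and the nuclear body genes Sp100 and Pml by 2.47 and 1.53 in Ing4 KO cells and by 2.01 and 1.55 in WT cells. The interacting partners Nmi and Ifi35 rose by 1.54 and 2.15 in Ing4 KO cells and by 1.37 and 1.81 in WT cells, and the secreted glycoprotein gene Lgals3bp by 1.39 and 1.04 in Ing4 KO and WT cells. Epsti1 rose in Ing4 KO cells (log2 2.03, SE 0.534, adjusted p = 0.031) and had a change of 1.63 (SE 0.518, adjusted p = 0.0741) in WT cells, where it passed with the replicate block within genotype (1.51, adjusted p = 0.00715).

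**Figure D2:**
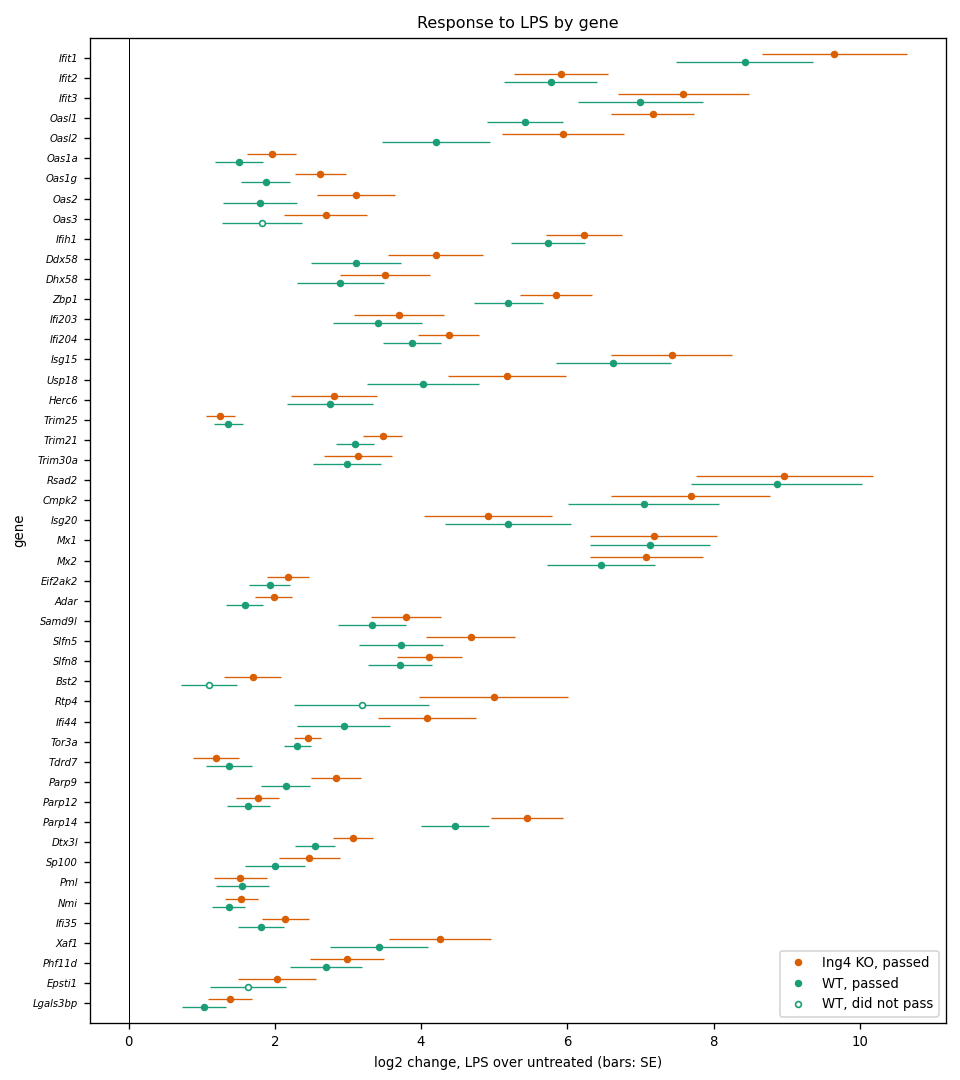
Log2 change after LPS (horizontal axis, with SE) of each member in Ing4 KO (orange) and WT cells (green). Filled points passed at an adjusted p of 0.05 and open points did not. All points lie to the right of 0, and Oas3, Bst2, Rtp4 and Epsti1 in WT cells are the open ones.

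Members kept much the same order of response in both genotypes, which share no samples. Across the 48 members the log2 changes in Ing4 KO and WT cells correlated with a Pearson r of 0.976 and a Spearman rho of 0.977, a description over genes and not over replicates. Per kilobase of annotated exon the order of levels differed between stimulated and untreated cells. In LPS-treated Ing4 KO cells Ifit1 was highest, at 661 and 671 CPM per kb, followed by Oasl1 at 620.1 and 618 and Isg15 at 523 and 498 CPM per kb. In LPS-treated WT cells Oasl1 led, at 598 and 1112 CPM per kb, with Rsad2 at 224 and 1316.5 and Isg15 at 304 and 980.0 CPM per kb. The order of these 3 in WT cells does not hold beyond the spread between the libraries. Herc6 was lowest after LPS in both, at 2.18 and 3.65 CPM per kb in Ing4 KO cells and 1.28 and 3.92 CPM per kb in WT cells. In untreated WT cells Bst2 was highest, at 105 and 130.0 CPM per kb, followed by Lgals3bp at 87.5 and 88.3 and Trim25 at 55.3 and 55.9 CPM per kb, and Mx1 was lowest, at 0.104 and 0.0717 CPM per kb.

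The LPS-treated WT libraries differed in a way shared by all members. The second library was higher than the first for 48 of 48 members, by a median log2 of 0.92, between 0.31 for Lgals3bp and 2.67 for Cmpk2, whereas 50.7% of all genes were higher in it. In the LPS-treated Ing4 KO libraries 13 members were higher in the second library and 35 lower, with a median of -0.15, where 53.0% of all genes were higher in the second. Early NF-kB targets, a list of 14 inflammatory genes that LPS induces without interferon, were higher in the second LPS-treated WT library in 10 of 14 cases, with a median of 0.23. Ifnb1 stood at 17.7 and 27.2 CPM in the first and second LPS-treated WT library. The number of members that rose in WT cells was 24 without the first untreated WT library (3.64% of all genes) and 26 without the second (3.43%), 32 without the second LPS-treated library (4.54%), and between 42 and 47 when any other library was left out.

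Genes that induce interferon and carry its signal also rose after LPS. Of 17 tested genes of this list, 11 rose and 1 fell in Ing4 KO cells, and 10 rose and 0 fell in WT cells. With all 12 libraries 5 rose and 1 fell in Ing4 KO cells, and 2 rose and 0 fell in WT cells. Ifnb1 stood at 15.0 and 9.07 CPM in LPS-treated Ing4 KO cells, against 2 and 0 counts in the untreated libraries (adjusted p = 0.000272). It stood at 17.7 and 27.2 CPM in LPS-treated WT cells, against 1 and 0 counts in the untreated libraries (adjusted p = 0.000221). Ifna4, an interferon-alpha gene, had 0 counts in every library. Irf7, the interferon-induced factor that amplifies the response, rose by 4.51 (SE 0.762, adjusted p = 0.00505) in Ing4 KO and 2.98 (SE 0.703, adjusted p = 0.0257) in WT cells. Stat2, Irf9, Irf1, the kinase genes Tbk1 and Ikbke, the adaptor Ticam1 and the inhibitor Socs1 rose in both genotypes as well. Socs1 rose by 4.03 (SE 0.404, adjusted p = 0.000344) in Ing4 KO and 4.74 (SE 0.425, adjusted p = 0.000292) in WT cells. Tyk2 rose and the LPS receptor gene Tlr4 fell in Ing4 KO cells, with a change of -2.39 (SE 0.392, adjusted p = 0.00395) for Tlr4, which in WT cells had a change of -0.89 (SE 0.373, adjusted p = 0.154). With the replicate block within genotype Tlr4 (-0.91, adjusted p = 0.000481) passed as lower in WT cells, Tyk2 and Jak1 as higher in WT cells, and Jak1 as higher and Ifnar2 as lower in Ing4 KO cells. The difference between the responses of Ing4 KO and WT cells passed for 0 of 17 genes of the list in edgeR, and 1, Tlr4, had an unadjusted p under 0.05 (adjusted p = 0.0792 with the replicate block within genotype).

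The size of the LPS response did not pass as different between Ing4 KO and WT cells for any member. The difference of responses was positive for 44 of 48 members, with a median of 0.48 against 0.00407 for all genes, but 0 passed (0.0% of all genes) in edgeR and 0 in DESeq2, and 1 had an unadjusted p under 0.05. Without the filter on low counts edgeR called 4 (0.162% of all genes), and with the replicate block within genotype 0 were called (0.0079% of all genes) and 12 had an unadjusted p under 0.05. The share of all genes under that unadjusted p was not counted. With the filter and no block the member with an unadjusted p under 0.05 was Oasl1, with a difference of 1.75 (SE 0.618, adjusted p = 1.0). Rtp4 differed by 1.81 (SE 1.24), Oasl2 by 1.74 (SE 1.01), Oas2 by 1.31 (SE 0.698), Ifit1 by 1.23 (SE 1.04) and Usp18 by 1.15 (SE 0.972), each with an adjusted p of 1.0. The median depended on the LPS-treated WT libraries, and was 0.136 without the first of them, with 27 members positive, and 1.19 without the second, with 48 positive.

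The levels after LPS did not pass as different between Ing4 KO and WT cells for any of 48 members (0 called), where 0.0869% of all genes were called higher and 0.229% lower. The log2 difference was positive for 13 members and negative for 35, with a median of -0.16 against 0.0167 for all genes, and 2 members had an unadjusted p under 0.05 in edgeR, while DESeq2 called 0 and edgeR without the filter on low counts called 3, where 3.39% of all genes were called. These were the neighbours Cmpk2 and Rsad2. Cmpk2 stood at 248 and 432 CPM in LPS-treated Ing4 KO cells and 458 and 2928.5 CPM in LPS-treated WT cells, a difference of -2.32 (SE 0.822, adjusted p = 0.418). Both knockout libraries were below both WT libraries, of which the second was far above the first. Rsad2 had a difference of -2.18 (SE 0.863, adjusted p = 0.472), and its levels of 466 and 1011 CPM in Ing4 KO cells overlapped with 972 and 5707 CPM in WT cells. Epsti1 had 36.2 and 35.0 CPM in Ing4 KO and 40.2 and 98.5 CPM in WT cells (log2 -0.96, SE 0.509, adjusted p = 0.594). Mx1, Isg20 and Usp18 had differences of -0.83, -0.69 and -0.59, with adjusted p of 0.698, 0.789 and 0.813. Groups did not overlap for Slfn8, higher in Ing4 KO cells (19.4% of all genes), and for Cmpk2 and Epsti1, lower in Ing4 KO cells (18.2% of all genes). Without the first LPS-treated WT library the median was -0.51, with 1 member positive, and without the second it was 0.37, with 44 positive, so the direction over the members rests on which WT library is used.

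Without LPS, most members stood lower in both knockouts than in WT cells, although none passed. Both comparisons use the same untreated WT libraries, and their values are not independent of each other. Members also moved together within a library, as described below, so counts of members are not counts of independent observations. The share of all genes with an unadjusted p under 0.05 was not counted in either. In untreated Ing4 KO cells 46 of 48 members had a negative log2 difference from WT, with a median of -0.68 against 0.00744 for all genes. The test called 0 of 48, where 0.261% of all genes were called lower and 0.103% higher, and 10 members had an unadjusted p under 0.05. DESeq2 called 1 member, Oasl1, where it called 1.07% of all genes lower, and edgeR without the filter on low counts called 21 lower, where 1.91% of all genes were called lower. Both Ing4 KO libraries were below both WT libraries for 35 of 48 members (20.1% of all genes) and above them for 0 (18.4%). In untreated Socs1 KO cells 47 of 48 members had a negative difference from WT, with a median of -0.62 against 0.00524 for all genes. Again 0 of 48 passed, where 0.182% of all genes were called lower and 0.0079% higher, and 8 had an unadjusted p under 0.05. DESeq2 called 2 members, Oasl1 and Ifi204, where it called 1.16% of all genes lower, and edgeR without the filter called 19 lower, where 1.85% of all genes were called lower. Both Socs1 KO libraries were below both WT libraries for 33 members (20.4% of all genes) and above them for 0 (19.0%).

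**Figure D3:**
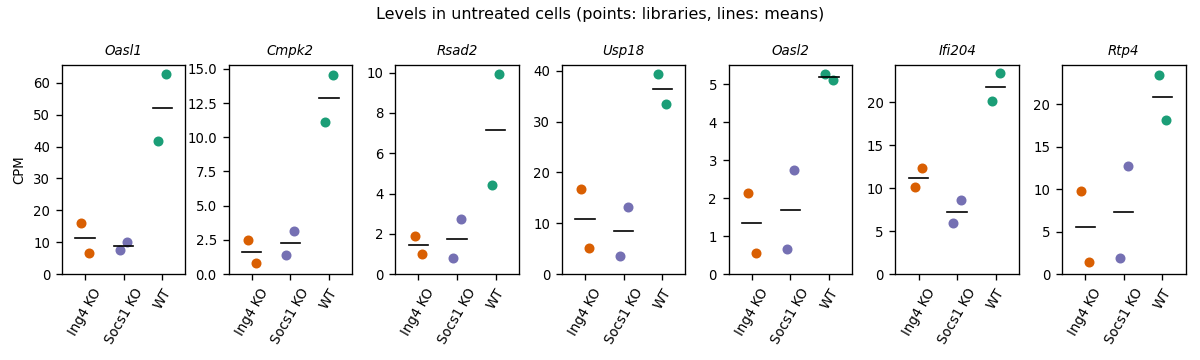
CPM (vertical axes, each from 0) of 7 members in untreated Ing4 KO (orange), Socs1 KO (purple) and WT cells (green). Points are the 2 libraries of a group and lines their means. The points of both knockouts lie below both WT points in every panel, and for Oasl2, Rtp4 and Usp18 the libraries of each knockout are far apart.

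Oasl1 had the smallest p in both knockouts. It stood at 16.0 and 6.50 CPM in untreated Ing4 KO cells, 7.72 and 10.2 CPM in untreated Socs1 KO cells and 41.7 and 62.7 CPM in untreated WT cells. The log2 difference from WT was -2.21 (SE 0.458, adjusted p = 0.122) in Ing4 KO and -2.54 (SE 0.465, adjusted p = 0.103) in Socs1 KO cells, and every knockout library was below both WT libraries by more than the spread within a group. Cmpk2 stood at 2.48 and 0.783 CPM in Ing4 KO, 1.39 and 3.13 CPM in Socs1 KO and 11.1 and 14.6 CPM in WT cells. Its differences were -2.96 (SE 0.943, adjusted p = 0.454) in Ing4 KO and -2.52 (SE 0.917, adjusted p = 0.567) in Socs1 KO cells. Rsad2 stood at 1.92 and 1.01 CPM in Ing4 KO, 0.780 and 2.74 CPM in Socs1 KO and 4.43 and 9.91 CPM in WT cells, with differences of -2.28 and -2.04 in Ing4 KO and Socs1 KO cells. Usp18 stood at 16.7 and 5.11 CPM in Ing4 KO, 3.64 and 13.2 CPM in Socs1 KO and 39.3 and 33.4 CPM in WT cells, with differences of -1.74 and -2.12 in Ing4 KO and Socs1 KO cells. For these 3 genes too, no knockout library reached a WT library.

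Oasl2 had differences of -1.93 in Ing4 KO and -1.64 in Socs1 KO cells. Among the members with the largest differences, Rtp4 in Ing4 KO cells stood at 9.85 and 1.38 CPM, against 23.5 and 18.2 CPM in WT cells (log2 -1.89, SE 0.922, adjusted p = 0.712). Ifi204 in Socs1 KO cells stood at 5.94 and 8.61 CPM, against 20.2 and 23.4 CPM in WT cells (log2 -1.59, SE 0.384, adjusted p = 0.253). Isg15 stood at 3.49 and 0.967 CPM in Ing4 KO, 1.08 and 2.79 CPM in Socs1 KO and 4.70 and 5.11 CPM in WT cells. Ifih1 stood at 11.0 and 7.42 CPM in Ing4 KO, 6.68 and 11.3 CPM in Socs1 KO and 15.9 and 19.6 CPM in WT cells, below WT in each knockout library as for Isg15. Adar, with 155 and 113 CPM in Ing4 KO, 106 and 156 CPM in Socs1 KO and 159.7 and 152 CPM in WT cells, overlapped between the genotypes. The members with a positive difference were Herc6 (0.11) and Slfn8 (0.06) in Ing4 KO cells and Slfn8 (0.15) in Socs1 KO cells.

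The untreated knockout libraries also differed from each other along these genes. The second untreated Socs1 KO library was higher than the first for 48 of 48 members, by a median log2 of 0.95, where 48.3% of all genes were higher. The second untreated Ing4 KO library was lower than the first for 40 of 48, by a median of -0.48, where 51.3% of all genes were higher in it. Without the first untreated Socs1 KO library the median difference of Socs1 KO from WT was -0.21, and without the second it was -1.30. Without the first untreated Ing4 KO library that of Ing4 KO from WT was -1.10, and without the second -0.46. Of the interferon induction and signalling list 0 of 17 genes passed in either untreated knockout, and 2, Irf3 and Irf7, had an unadjusted p under 0.05 in each, with medians of -0.03 in Ing4 KO and -0.06 in Socs1 KO cells. Irf7 stood at 14.1 and 4.65 CPM in Ing4 KO, 4.64 and 16.7 CPM in Socs1 KO and 36.9 and 33.6 CPM in WT cells. Irf7 was thus lower in every knockout library than in either WT library. Irf3 was higher in every knockout library than in either WT library, at 46.7 and 43.3 CPM in Ing4 KO, 47.8 and 43.3 CPM in Socs1 KO and 33.3 and 33.8 CPM in WT cells.

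In Socs1 KO cells the LPS response of the members differed between the libraries of 1 group. With both LPS-treated libraries 3 of 48 members rose and 0 fell, where 1.57% of all genes were called higher and 0.407% lower. Without the first LPS-treated library 48 of 48 rose, where 9.03% of all genes were called higher, and without the second 2, Oasl1 and Ifih1, rose, where 1.53% of all genes were called higher, and 38 of 48 members had a negative change. With the replicate block within genotype and both LPS-treated libraries 6 rose, namely Ifih1, Ifit1, Ifit3, Isg15, Oasl1 and Rsad2, where 4.39% of all genes were called higher, and the median was 1.85. Without the filter on low counts edgeR called 48 higher (4.16% of all genes), and DESeq2 called 19 higher (5.07% of all genes). Without either untreated Socs1 KO library 0 passed, and leaving out any library of another group left 1, Oasl1. The median log2 change was 3.00 with both LPS-treated libraries, 3.94 without the first and -0.42 without the second. With 1 LPS-treated library left, its spread is taken to be that of the remaining groups. For the fits without an untreated Socs1 KO library or a library of another group, the share of all genes called was not counted.

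The 3 members that rose with both libraries were Oasl1, Isg15 and Ifih1. Oasl1 stood at 155 and 1328 CPM in LPS-treated and 7.72 and 10.2 CPM in untreated Socs1 KO cells, a change of 6.37 (SE 1.04, adjusted p = 0.0202). Isg15 stood at 31.4 and 497 CPM with LPS and 1.08 and 2.79 CPM without (log2 7.10, SE 1.41, adjusted p = 0.0458). Ifih1 stood at 62.0 and 1006 CPM with LPS and 6.68 and 11.3 CPM without (log2 5.89, SE 1.19, adjusted p = 0.0484). Both LPS-treated libraries of these 3 genes were above both untreated ones, the second by far more than the first. Ifit1 (13.6 and 1685.5 CPM with LPS, 0.607 and 2.99 CPM without) and Rsad2 (13.2 and 999.8 CPM with LPS, 0.780 and 2.74 CPM without) had changes of 8.90 (SE 2.11, adjusted p = 0.0821) and 8.18 (SE 2.03, adjusted p = 0.0944), with the same order of libraries. Without the first LPS-treated library their changes were 9.90 (SE 1.04, adjusted p = 0.00111) and 9.17 (SE 1.26, adjusted p = 0.00332).

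For 40 of 48 members the first LPS-treated library was not above both untreated ones. Usp18 stood at 3.54 and 597 CPM in LPS-treated and 3.64 and 13.2 CPM in untreated Socs1 KO cells. Ifit3 stood at 0.815 and 180.0 CPM with LPS and 0.173 and 1.24 CPM without, and Cmpk2 at 2.89 and 484 CPM with LPS and 1.39 and 3.13 CPM without. In each case the first LPS-treated library lay below or among the untreated ones and the second far above them. Adar stood at 98.7 and 629.7 CPM with LPS and 106 and 156 CPM without, and Mx1, with 1 count in the first LPS-treated library, at 0.0407 and 26.8 CPM with LPS and 0.130 and 0.348 CPM without. Over all 48 members the first LPS-treated library was above both untreated libraries for 8, between them for 24 and below both for 16, and the second was above both for 48. How many of all genes took these positions in either LPS-treated library alone was not counted. The 8 were Oasl1, Isg15, Ifit1, Rsad2, Ifih1, Isg20, Zbp1 and Ifi204, and both LPS-treated libraries were above both untreated ones for 22.5% of all genes. Of these, 5 stood more than a log2 of 1 above the untreated mean in the first library: Oasl1 by 4.10, Isg15 by 3.95, Ifit1 by 2.85, Rsad2 by 2.84 and Ifih1 by 2.77, on a scale of log2 (CPM + 0.1).

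**Figure D4:**
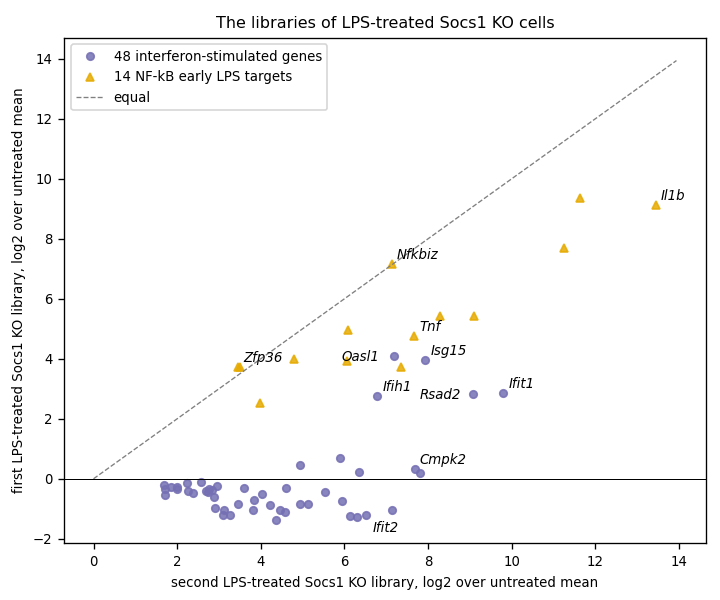
Log2 (CPM + 0.1) minus the mean of the untreated Socs1 KO libraries, in the second (horizontal axis) and the first (vertical axis) LPS-treated Socs1 KO library, for the 48 members (circles) and 14 NF-kB early LPS targets (triangles). The triangles are above 0 on both axes, with medians of 7.25 and 4.85, while the circles have medians of 3.93 and -0.42, and 5 of them stand apart above the rest on the vertical axis.

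Inflammatory genes that respond to LPS without interferon were raised in both LPS-treated Socs1 KO libraries. All 14 early NF-kB targets, chosen like the members with earlier results known, were above both untreated libraries in each, by a median log2 of 4.85 in the first and 7.25 in the second. Because of that choice this count is a description and not a test. Of all genes, 22.5% had both LPS-treated libraries above both untreated ones. Tnf stood at 1380.3 and 10525 CPM with LPS and 41.2 and 61.7 CPM without, Nfkbiz at 1016 and 999.9 CPM with LPS and 4.90 and 9.15 CPM without, and Zfp36 at 506 and 425 CPM with LPS and 44.4 and 32.4 CPM without. Nfkbiz and Zfp36 were about as high in the first LPS-treated library as in the second, and Tnf was lower in the first, as were 11 of the 14 targets, with a median log2 difference of the second from the first of 2.21. Of the 18 genes of the interferon induction and signalling list, 8 in the first library were above both untreated ones, 3 between or equal and 7 below, with a median of 0.02, and 12 were above in the second, with a median of 1.55. Ifnb1 stood at 5.91 and 22.6 CPM with LPS, against 0 and 1 counts in the untreated libraries (adjusted p = 0.00614). Stat2 stood at 11.7 and 265 CPM with LPS and 21.5 and 33.0 CPM without, and Irf7 at 6.96 and 316 CPM with LPS and 4.64 and 16.7 CPM without. The first LPS-treated library thus had Ifnb1 counts far above the untreated ones while Stat2 lay below both untreated values. From the list 3 genes rose with both libraries, Ifnb1, Socs1 and Ticam1, and Tlr4 fell, and 10 rose and 1 fell without the first. With both libraries and the replicate block within genotype 5 rose, Ikbke and Jak1 in addition, and Tlr4 fell.

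Against LPS-treated WT cells, 0 of 48 members passed in LPS-treated Socs1 KO cells with both libraries, where 0.0% of all genes were called higher and 0.0626% lower, and 0 had an unadjusted p under 0.05. DESeq2 also called 0, and edgeR without the filter on low counts called 16 lower, where 2.21% of all genes were called lower. The log2 difference was negative for 47 members, with a median of -0.66 against 0.0152 for all genes. Without the first Socs1 KO library 0 passed as well, the median was 0.21 and 41 were positive, whereas without the second 47 were called lower, with a median of -3.99, where 4.69% of all genes were called lower. Cmpk2 had a difference of -2.80 (SE 1.65, adjusted p = 0.583) with both and -1.80 (SE 1.06, adjusted p = 0.57) without the first library. Rsad2 had -2.72 and -1.74, Mx1 -1.84 and -0.83, Oasl1 -1.59 and -0.75, Ifi204 -1.44 and -0.50, and Ifi203 -1.22 and -0.31. These 6 members had negative differences in both fits, and none of them passed in either. Oasl1 was the member for which both Socs1 KO libraries were below both WT libraries (18.0% of all genes). The difference of the LPS response from that of WT passed for 0 members (0.0% of all genes) in edgeR and 0 in DESeq2, and 0 had an unadjusted p under 0.05, with 22 positive and 26 negative and a median of -0.06. Without the first library it was positive for 47 members, with a median of 0.87, 0 passed and 1, Oasl1, had an unadjusted p under 0.05. Without the second it was negative for all 48, with a median of -3.62, and 6 were called lower, where 0.346% of all genes were. Without the first library Oasl1 differed by 1.80 (SE 0.674, adjusted p = 1.0), Usp18 by 2.13 (SE 1.08, adjusted p = 1.0), Oasl2 by 1.84 and Rtp4 by 1.80, while Mx1 and Ifi203 differed by -0.32 and 0.21. With both libraries these differences were 0.95, 1.14, 0.84, 0.81, -1.34 and -0.70, with an adjusted p of 1.0 each.

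The authors' deposited table of changed genes for LPS-treated against untreated WT cells lists 21 of the 48 members among 867 genes, all of them higher. In the authors' deposited table the largest log2 values of members were 4.02 for Oasl1, 2.92 for Ifih1, 2.69 for Isg15, 2.50 for Rsad2 and 2.24 for Cmpk2. These are smaller than the changes given above, and the submitters' processing notes name DESeq2 without saying with which settings these values were made. The authors' deposited tables hold 0 members among 117 genes for LPS-treated Ing4 KO against WT cells, 183 for LPS-treated Socs1 KO against WT, 104 for untreated Ing4 KO against WT and 74 for untreated Socs1 KO against WT.

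Some members share sequence with other genes, and their counts are uncertain to that extent. Of the 75-base words of the exons, the length of the reads, 47.6% of Oas1a and 36.9% of Oas1g also occur in another gene, as do 41.1% of Ifit3, 13.2% of Ifi204, 11.3% of Herc6 and 10.5% of Rtp4. For the other members the share was at most 6.99%, in Slfn8. Exons of Adar and Ifi35 overlap a gene on the opposite strand over 16.8% of their length each, and those of Parp9 and Dtx3l overlap each other. The library kit keeps strand, but the sources used here do not say whether counting used it.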

How the data were processed

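RNA from RAW 264.7 cells was sequenced as single-end 75-base reads from poly(A)-selected, stranded libraries, per the labels' protocols. The authors deposited whole-number counts per gene, with mouse Ensembl IDs, and tables of called genes with log2 fold changes and adjusted p-values. The submitters' processing notes name FastQC, HISAT, StringTie, HTSeq and DESeq2 without versions, and the human build GRCh38. The treatment protocol names HEK293T cells, whereas the cell line label and the IDs are those of mouse cells. Positions in the authors' deposited tables equalled those of mouse GRCm38 for 1028 of 1084 genes.

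Counts were fitted with edgeR 4.0.16 (R 4.3.3) by its robust quasi-likelihood test, with TMM scaling, its default filter on low counts and Benjamini-Hochberg adjustment over all genes tested. A gene was called at an adjusted p under 0.05. Numbers of genes with an unadjusted p under 0.05 are given without the share of all genes, which was not counted. Comparisons without LPS-treated Socs1 KO cells used 10 libraries (12664 genes) and the others all 12 (12771 genes). Differences between replicates 1 and 2 of untreated and LPS-treated cells correlated across genes within each genotype (0.601 in Ing4 KO, 0.565 in Socs1 KO and 0.447 in WT cells), so replicate numbers were taken to pair libraries within a genotype. The labels do not state such a pairing. Fits with that block left 2 residual degrees of freedom with 10 libraries and 3 with all 12. The procedure was checked on simulated counts. DESeq2 1.42.0, limma-voom (limma 3.58.1), other scalings, no filter, other sets of libraries, a replicate block and leaving out each library were alternatives. Where an alternative has no share of all genes in the report, that share was not counted. A change in the number of members called there cannot be told from a general change in power. By the rule for named genes, values in every library are given for 8 members, and up to 6 members per comparison were named by the size of the change among those with at least 2 CPM; all may be named. Members and lists were chosen with earlier results of these data known. A gene of the interferon induction and signalling list is counted with that list but not reported here by name.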

Additional observations from a re-analysis of the deposited data

How the results depend on the processing

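With all 12 libraries in the fit, 5 members rose after LPS in Ing4 KO and 3 in WT cells. For LPS in Socs1 KO cells the number called was 48 without the filter on low counts, 19 with DESeq2, 1 with limma-voom and 0 with the groups of the comparison only. In untreated Ing4 KO against WT cells it was 21 without the filter, 1 with DESeq2 and 4 with the groups of the comparison only, and in untreated Socs1 KO against WT cells 19 without the filter and 2 with DESeq2. Without the filter it was 3 for LPS-treated Ing4 KO against WT, 16 for LPS-treated Socs1 KO against WT and 4 for the difference of responses of Ing4 KO and WT cells. The cause was not tested, but unfiltered p-values were far smaller than others, with an adjusted p of 4.86e-56 for Usp18 after LPS in WT cells against 0.0108 with the filter. Upper-quartile scaling moved the median log2 change of all genes after LPS by -0.136 in Ing4 KO, -0.136 in Socs1 KO and -0.116 in WT cells.

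Leaving out each library in turn gave 40 to 48 members for LPS in Ing4 KO, 0 to 48 in Socs1 KO and 24 to 47 in WT cells. It gave 0 to 1 for untreated Socs1 KO against WT, where Ifi204 was called without either LPS-treated WT library, 0 to 47 for LPS-treated Socs1 KO against WT and 0 to 6 for the difference of the Socs1 KO and WT responses. The other comparisons stayed at 0.

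Between genotypes the differences between replicates 1 and 2 correlated by -0.129 to 0.156, so the numbers were taken to pair libraries within a genotype and not across genotypes. With a replicate block shared by all groups 1 member was called for LPS in Socs1 KO cells. With a replicate block within genotype 6 were called there, and among the 48 members no call changed other than those given in the report. The block within genotype absorbs differences between genotypes, so no value was taken from it for comparisons of Ing4 KO or Socs1 KO with WT cells of the same treatment.

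Some named members changed direction. Without the second LPS-treated Socs1 KO library the change after LPS in Socs1 KO cells was -1.24 for Usp18, -2.36 for Mx1 and -0.41 for Adar, and leaving out single libraries gave up to 6.37, 6.81 and 2.27. In LPS-treated Ing4 KO against WT cells leaving out single libraries gave -1.71 to 0.15 for Mx1, -1.37 to 0.62 for Isg20 and -1.09 to 0.20 for Usp18, each positive without the second LPS-treated WT library. For the difference of the Socs1 KO and WT responses, leaving out single libraries gave -5.27 to 2.34 for Usp18, -1.30 to 1.80 for Oasl1, -4.97 to 2.19 for Oasl2, -4.04 to 2.75 for Rtp4 and -3.70 to 0.33 for Ifi203, the negative ends without the second LPS-treated Socs1 KO library. There Usp18 had -0.79 and Rtp4 -0.15 with a replicate block within genotype, and limma-voom gave -1.29 for Usp18, -1.31 for Oasl2 and -0.67 for Rtp4.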
